A study of Schmidtea mediterranea with 32 samples.

Results

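The 99 contigs described here are abundant sequences of the sexual assembly that stood at an intermediate, lowered level after 6 and 8 feedings of nhr-1 RNAi, neither unchanged nor nearly gone. They were picked from 177783 named reference sequences, of which 93783 carry the prefix SmedSXL and are read here, from the name alone, as contigs of a sexual transcript assembly. Levels are CPM, counts scaled to a total of 1000000 over all SmedSXL contigs except SmedSXL_088910, the most abundant one. A contig was taken when its mean over the control libraries at 4, 6 and 8 feedings was at least 100 CPM. Its ratio of mean nhr-1 RNAi to mean control CPM, with 0.1 CPM added to both, had to be over 0.25 at 4 feedings, and over 0.125 and at most 0.33 at both 6 and 8 feedings. The libraries of both arms had to be free of overlap at 6 and at 8 feedings, and the control mean at 8 feedings had to be under 3 times that at 4. Of 1654 SmedSXL contigs past the abundance limit, SmedSXL_088910 left out, 99 met all criteria.

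The libraries are poly(A) RNA of whole animals of the freshwater planarian Schmidtea mediterranea, all of the sexual biotype that the labels name S2F2. Animals of 1 arm received nhr-1 RNAi and those of the other arm an RNAi labelled UNC, the control, and both were sampled after 4, 6, 8 and 11 feedings. Each of the 8 groups holds 4 libraries, except the control at 6 feedings with 3, and 1 more control library is labelled 7 feedings. The labels do not say how many animals went into a library or whether libraries came from separate cultures, so the p-values measure only the spread between these libraries. The labels give neither the animals' age nor the sequence behind the UNC control.

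Nuclear hormone receptors are transcription factors whose activity can be set by small lipophilic molecules, and planarian nhr-1 is known to be required for the development of the reproductive system. Sexual planarians are hermaphrodites that carry testes, ovaries, yolk glands and copulatory organs in 1 body, whereas the asexual biotype reproduces by fission and lacks mature reproductive organs. RNAi in planarians is commonly delivered by feeding double-stranded RNA, so that a larger number of feedings also means a longer time under RNAi. Identifiers in the table come without gene names, and neither contig sequences nor an annotation were used here. The contigs are therefore given by identifier, without function or organ, and the knockdown of the nhr-1 transcript was not analysed here. In whole animals, fewer cells of a type and less RNA per cell cannot be told apart.

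Counts on SmedSXL contigs other than SmedSXL_088910 ranged from 3094065 to 7714361 per library. A group of 3 libraries stood apart, with SmedSXL_088910 taking 47.5% of the SmedSXL counts in control replicate s3 at 11 feedings, 45.6% in control replicate s2 at 11 feedings and 36.9% in nhr-1 replicate s2 at 4 feedings, where the median library had 13.8%. The same libraries were poor in long contigs. Among the 1555 abundant contigs that are no members, the summed CPM of those of 1000 bases or more was 0.454, 0.469 and 0.599 times that of the shorter ones in these 3 libraries, whereas it was between 0.748 and 2.14 times in the other 29. The main test, the ratios of the members, the overlap and the correlation with length at 11 feedings are therefore given with and without them. Shares of counts, correlations between members, most alternative fits and the neighbouring set are given with all controls only.

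Together the 99 contigs made up a few percent of the sexual-assembly counts in control animals and well under 1% in nhr-1 RNAi animals from 6 feedings on. At 4 feedings they took 3.47%, 1.29%, 3.68% and 2.81% of the counts in control replicates 1, s1, s2 and s3, and 1.93%, 2.02%, 1.55% and 2.78% in nhr-1 replicates 1, s1, s2 and s3. These ranges overlap only through control replicate s1, which lay below all nhr-1 libraries. The other controls held 2.81% or more, just above the highest nhr-1 library with 2.78%. The means were 2.81% ± 1.08 (SD, n = 4) and 2.07% ± 0.516 (SD, n = 4).

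At 6 feedings the share was 4.15%, 2.71% and 3.21% in control replicates 1, s1 and s2, a mean of 3.36% ± 0.734 (SD, n = 3). It was 0.486%, 0.698%, 0.750% and 0.762% in nhr-1 replicates 1, s1, s2 and s3, a mean of 0.674% ± 0.128 (SD, n = 4). At 8 feedings the control replicates 1, s1, s2 and s3 held 4.40%, 1.86%, 2.89% and 2.64%, and the nhr-1 replicates of the same names 0.464%, 0.366%, 0.630% and 0.571%. The gap at 6 and 8 feedings was set by the choice of contigs and is given as a description. The means at 8 feedings were 2.95% ± 1.06 (SD, n = 4) and 0.508% ± 0.117 (SD, n = 4).

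The libraries at 11 feedings took no part in the choice. There the share was 3.42%, 2.29%, 1.65% and 3.10% in control replicates 1, s1, s2 and s3, and 0.349%, 0.343%, 0.519% and 0.692% in nhr-1 replicates 1, s2, s3 and s4. Every nhr-1 library lay below every control library, and the lowest control was replicate s2, where long contigs are scarce. The means were 2.62% ± 0.799 (SD, n = 4) and 0.476% ± 0.166 (SD, n = 4). The control library labelled 7 feedings, which the rule did not use either, held 2.84%, inside the range of the controls at 6 and 8 feedings.

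**Figure D1:**
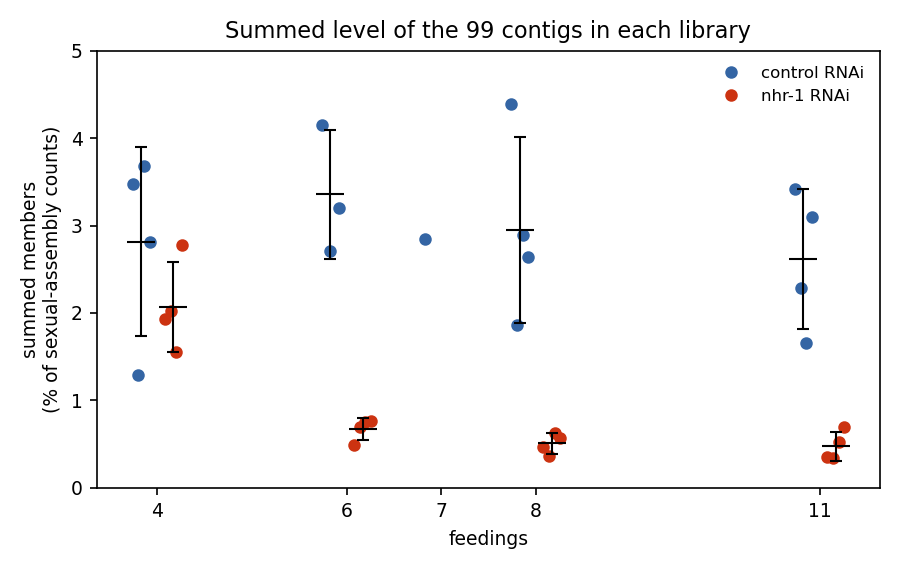
Summed level of the 99 contigs as a percentage of the sexual-assembly counts without SmedSXL_088910 (y axis) against the number of feedings (x axis). Each point is 1 library, in blue for control RNAi and red for nhr-1 RNAi, and the bars give mean and SD. The groups overlap at 4 feedings through control replicate s1 alone. At 11 feedings the 4 nhr-1 libraries lie between 0.343% and 0.692% and the 4 controls between 1.65% and 3.42%.

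The members cover a wide range of size and level. Their lengths run from 330 to 3442 bases with a median of 1388, and 34 of them are under 1000 bases. The other 1555 abundant contigs had a median length of 1349 bases, with 35.6% under 1000 bases against 34.3% of the members. Mean control levels over 4, 6 and 8 feedings ran from 100.2 to 1497 CPM with a median of 166 CPM. Of the 99, 58 stood under 200 CPM and 18 at 500 CPM or more. Per length the control levels ran from 32.7 to 2483 CPM per kb.

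The values near each limit of the rule show how the set ends. SmedSXL_012812 was just inside the abundance limit with 100.2 CPM and SmedSXL_018608 just outside with 99.3 CPM, and 1854 contigs failed on abundance alone. The upper limit at 6 feedings lay between SmedSXL_002174 with a ratio of 0.322 and SmedSXL_006351 with 0.336, and 13 contigs failed on it alone. The lower limit at 8 feedings lay between SmedSXL_003215 with 0.126 and SmedSXL_007299 with 0.125, to 3 digits, and 33 contigs failed on it alone. At the upper limit at 8 feedings SmedSXL_019289 was inside with 0.303 and SmedSXL_019114 outside with 0.402, the only contig that failed on it alone. No contig failed on any of the remaining numeric limits alone. The nearest members there were SmedSXL_017992 with a ratio of 0.558 at 4 feedings, SmedSXL_019727 with 0.146 at 6 feedings and SmedSXL_018218 with a control ratio of 2.32 between 8 and 4 feedings.

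At 4 feedings most members stood somewhat lower in nhr-1 RNAi than in control animals, with the libraries of both arms mixed. The ratio ran from 0.558 to 1.04 with a median of 0.748, and it was below 1 for 98 of 99 members. The groups overlapped for all 99 members, where 1.75% of all abundant contigs had every nhr-1 library below every control. Single libraries weighed heavily. The median over members of the level relative to the control mean was 0.758 in nhr-1 replicate 1, 0.728 in s1, 0.361 in s2 and 1.02 in s3, and all 99 members were lowest in replicate s1 among the controls. Without nhr-1 replicate s2, which is poor in long contigs, the median ratio was 0.847 and 87 members were below 1. Leaving out control replicate s1 instead would lower the ratio of every member, and that ratio was not computed.

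At 6 feedings the ratio of the members ran from 0.146 to 0.322 with a median of 0.195, and at 8 feedings from 0.126 to 0.303 with a median of 0.168. As fold differences these medians are 5.14 and 5.94. The ratio at 8 feedings was below that at 6 for 84 members. Both ratios were confined by the rule. The ratio at 4 feedings had to exceed 0.25 only, so that its closeness to 1 was not set by the rule in the same way.

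The comparison at 11 feedings, whose libraries the rule did not use, gave a lower level for nearly every member. By edgeR's quasi-likelihood test on the 8 libraries at 11 feedings, with Benjamini-Hochberg adjustment over 37168 tested sequences, 98 of 99 members were lower at an adjusted p under 0.05 and 0 were higher. All 99 passed the filter on low counts. Of all tested sequences 10.8% were called lower and 0.393% higher, and of the 1654 abundant contigs 13.2% were called lower. All 99 had an unadjusted p under 0.05, as had 29.5% of all tested sequences, all 99 fold changes were negative, and DESeq2 also called 0 members higher. The median log2 fold change of the members was -2.44, with a range from -5.07 to -1.40, whereas the median over all tested sequences was 0.06. Without control replicates s2 and s3, all 99 were called and the range narrowed to between -3.15 and -1.69, with a median of -2.68 and a background of 11.9% called lower. With the libraries paired by replicate name, 82 were called against 8.16% of all sequences. RLE size factors called 98 (10.4%), DESeq2 98 (4.86%, with no value for 1 member), no filter on low counts 98 (4.87%), and SmedSXL contigs alone 98 (14.7%). DESeq2 and the fit without the filter tested 157543 and 157611 sequences, so their shares are not over the same sequences as that of the main test. Among abundant contigs they called 19.4% and 21.3% lower, against 13.2% in the main test. The 6 libraries named with s called 82 (16.1%). The fit over 31 libraries called 99 (21.8%), or 99 without control replicates s2 and s3 (10.5%), but it takes its spread partly from the libraries at 4, 6 and 8 feedings that chose the members and lends no independent support. With total counts in place of TMM scaling, 27 members were called against a background of 3.14%, and the median over all sequences shifted to 0.56. All 99 fold changes were still negative there, with a median of -2.08. Relative to the median of all sequences this is -2.64, at least as far below as with TMM, where the medians were -2.44 and 0.06. With total counts, however, only 82 members had an unadjusted edgeR p under 0.05, as had 11.4% of all sequences. The TMM factors were 0.441 and 0.417 for control replicates s2 and s3, and between 1.14 and 1.51 for the other libraries. The calls thus depended on the scaling of these controls.

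Counts behind these calls were well above 0. The smallest count of a member in an nhr-1 library at 11 feedings was 36 and the largest 3231, and no member had a mean under 10 CPM in the nhr-1 group. The transcripts counted on these contigs thus remained measurable through the longest RNAi sampled. The ratio at 11 feedings ran from 0.0485 to 0.454 with a median of 0.223. It was at most 0.125 for 13 members, between 0.125 and 0.33 for 75 and over 0.33 for 11. Without control replicates s2 and s3 it ran from 0.115 to 0.315 with a median of 0.157, and 92 members lay between 0.125 and 0.33 and the other 7 below.

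**Figure D2:**
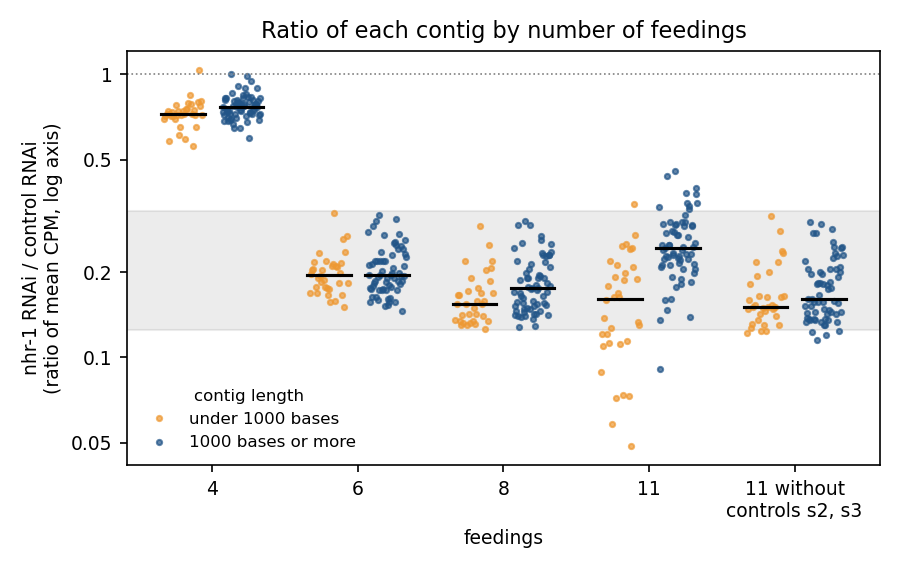
Ratio of mean nhr-1 RNAi to mean control CPM (y axis, log scale) for each of the 99 contigs at 4, 6, 8 and 11 feedings, and at 11 feedings without control replicates s2 and s3 (x axis). Orange points are contigs under 1000 bases, blue points contigs of 1000 bases or more, black lines their medians, and the grey band the limits of the rule at 6 and 8 feedings. The ratios spread from 0.0485 to 0.454 at 11 feedings, and from 0.115 to 0.315 when both control libraries are left out.

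The overlap of libraries at 11 feedings depended on the same controls. In CPM, every nhr-1 library lay below every control for 55 of 99 members, against 9.79% of all abundant contigs. Control replicate s2 was the lowest control for 71 members, and nhr-1 replicate s4 was the highest nhr-1 library for 97. Without control replicate s2, 86 members had no overlap, against 12.6% of abundant contigs, and without nhr-1 replicate s4, 78, against 11.4%. Without control replicates s2 and s3 all 99 had none, against 17.9% of abundant contigs. In CPM scaled by TMM, which raises both control libraries relative to the others, 96 members had no overlap, against 14.0%.

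Contig length ordered the ratios at 11 feedings. For the 34 members under 1000 bases the median ratio was 0.161 and 30 had no overlap, whereas for the 65 longer members it was 0.244 and 25 had no overlap. Of the other abundant contigs, 82 of 554 short ones (14.8%) and 25 of 1001 long ones had none. Across members, the ratio at 11 feedings and the length had a Spearman rho of 0.575, and across the other 1555 abundant contigs the rho was 0.597. Without control replicates s2 and s3 the rho was 0.112 for the members and 0.0531 for the others. The median ratios of short and long members were then 0.151 and 0.161. Contigs are not independent replicates, and all these values share the same 8 libraries.

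The length pattern is visible library by library. On the log2(CPM + 1) scale, relative to the mean of the controls at 4, 6 and 8 feedings, the median long member stood at 0.46 in control replicate 1 at 11 feedings, -0.20 in s1, -1.86 in s2 and -0.93 in s3. The median long contig among the other abundant ones stood at 0.12, 0.05, -1.21 and -1.30 in the same libraries. For short members the medians were -0.05, -0.46, -0.19 and 0.23, and for the other short contigs -0.42, -0.06, 0.69 and 0.52. In control replicates s2 and s3, long contigs were low both inside and outside the set. Short contigs outside the set were high in both libraries, whereas the short members were above the reference in s3 only.

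Each library was then scaled to the other abundant contigs of the same length class, a scaling chosen after the data were seen. The median ratio at 11 feedings became 0.194 for short and 0.185 for long members, and 85 of 99 members had no overlap, against 14.9% of abundant contigs. Among long members the number without overlap was 62 of 65, and among short ones 23 of 34, against 7.99% of the other long and 14.6% of the other short contigs.

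**Figure D3:**
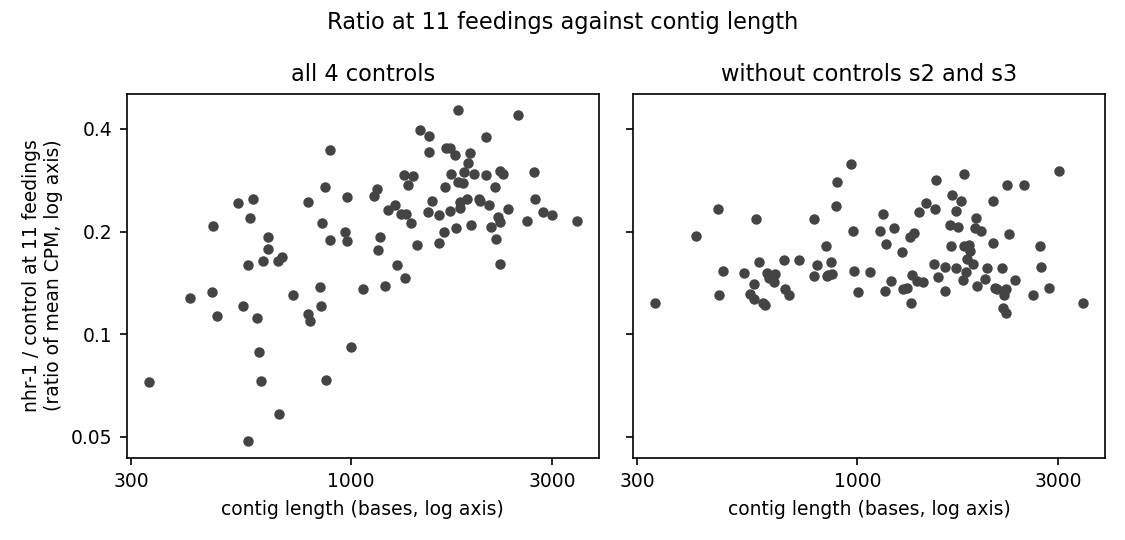
Ratio of mean nhr-1 RNAi to mean control CPM at 11 feedings (y axis, log scale) against contig length in bases (x axis, log scale) for the 99 contigs, with all 4 control libraries on the left and without control replicates s2 and s3 on the right. The rise of the ratio with length, with a Spearman rho of 0.575 on the left, is 0.112 on the right.

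**Figure D4:**
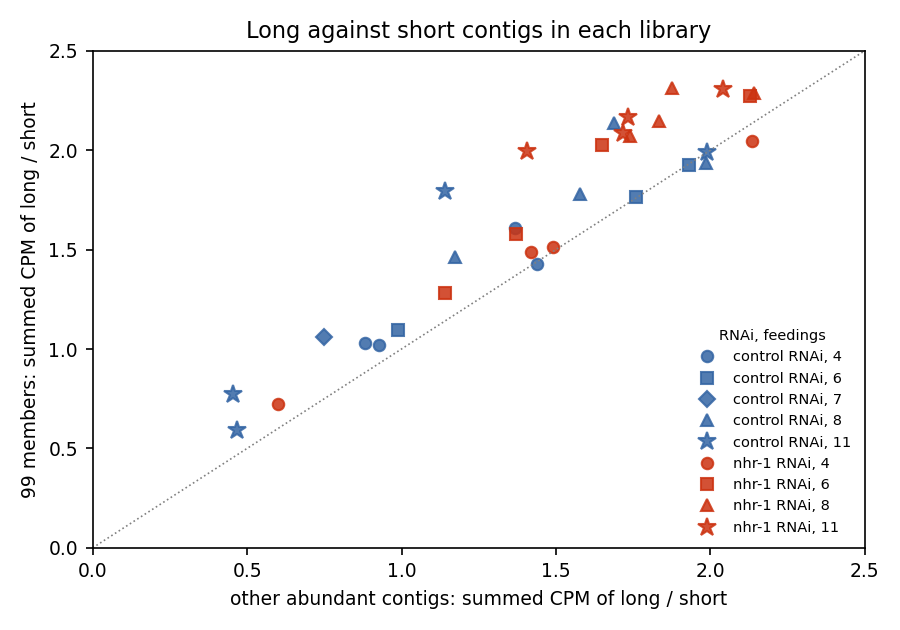
Summed CPM of contigs of 1000 bases or more divided by that of shorter contigs, for the 99 members (y axis) and for the other 1555 abundant contigs (x axis). Each point is 1 library, coloured by RNAi and shaped by feedings, and the dotted line marks equal values. Control replicates s2 and s3 at 11 feedings lie at the lower left with 0.469 and 0.454 on the x axis, and all 4 nhr-1 libraries at 11 feedings lie at 1.41 or above on it.

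The members kept much of their order between libraries that share no sample. Across the 99 contigs, the ratio at 8 feedings and that at 11 feedings had a Spearman rho of 0.684, and of 0.907 without control replicates s2 and s3. With the ratio at 6 feedings the rho without these replicates was 0.698, and with the ratio at 4 feedings 0.310. The ratio at 11 feedings was below that at 8 for 25 members, and for 64 without both control replicates. The order is described over contigs, whose ratios at 6 and 8 feedings the rule confined to a narrow band. It was not computed for the other abundant contigs, so it cannot be called particular to the members.

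The members also moved together from library to library. Within the 8 libraries at 11 feedings, the log2 levels of 4851 pairs of members correlated with a median r of 0.900, and those of pairs among the other 1555 abundant contigs with a median r of 0.21. That value includes the difference between arms, for which the members were chosen at earlier feedings. Within the 4 nhr-1 libraries at 11 feedings, where no difference between arms enters, it was 0.954 for the members and 0.014 for the other contigs, and 4845 of the 4851 pairs of members were positive, against 50.5% of the other pairs. There replicate 1 or replicate s2 was the lowest library for every member, and replicate s4 the highest for 97. At 8 feedings nhr-1 replicate s1 was lowest for 95 members and control replicate 1 highest for 98. The pairs share library, depth and scaling, so that their correlation also carries differences between whole libraries.

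A single pair of members, SmedSXL_010235 and SmedSXL_011516, had total counts within 5% of each other and log2 counts correlated above 0.99. Reads of 1 transcript may be counted on both, and both are reported as uncertain. Matches to contigs with the prefix SmedASXL, read as an asexual assembly, were sought by the same limits. Such a match was found for 24 members (24.2%) and for 1290 of the other 1555 abundant contigs (83.0%). With a looser limit of 0.95 on the correlation the shares were 78.8% and 90.9%. Under the strict limit 15 of 34 short and 9 of 65 long members had a match. No sequences were compared, so a missing match says only that no asexual-assembly contig had nearly the same counts.

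The 4 members with the highest control level per length are SmedSXL_088939, SmedSXL_089005, SmedSXL_017621 and SmedSXL_088974, with 2483, 1360, 1347 and 1346 CPM per kb. All 4 are short, with 603, 567, 846 and 554 bases. SmedSXL_088939 stood at 1320.2, 1169, 1769 and 2581 CPM in control replicates 1, s1, s2 and s3 at 11 feedings. In nhr-1 replicates 1, s2, s3 and s4 it stood at 103, 115, 173 and 216 CPM. The groups were far apart, with the highest nhr-1 library under every control. Its log2 fold change came to -4.07 with an SE of 0.541 (edgeR adjusted p = 0.00160), and -3.06 without control replicates s2 and s3, the controls in which it was highest.

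SmedSXL_089005 stood at 834, 507, 141 and 651 CPM in control replicates 1, s1, s2 and s3 at 11 feedings. It stood at 62.3, 64.9, 95.1 and 117 CPM in nhr-1 replicates 1, s2, s3 and s4. Control replicate s2 came close to the highest nhr-1 library, but the groups did not overlap. The log2 fold change came to -3.03 with an SE of 0.494 (edgeR adjusted p = 0.00388), and -3.00 without control replicates s2 and s3. The call of SmedSXL_089005 was lost in 1 of 18 alternatives (edgeR adjusted p = 0.0976). At 4 feedings its means were 943 ± 270.3 CPM (SD, n = 4) in the control and 549 ± 217 CPM (SD, n = 4) under nhr-1 RNAi.

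SmedSXL_017621 stood at 1169, 881, 1002 and 1969 CPM in control replicates 1, s1, s2 and s3 at 11 feedings and at 103, 107, 165 and 233 CPM in nhr-1 replicates 1, s2, s3 and s4. Its log2 fold change came to -3.59 with an SE of 0.518 (edgeR adjusted p = 0.00218). SmedSXL_088974 was the most even of these in the controls, at 753, 507, 677 and 806 CPM in replicates 1, s1, s2 and s3. In nhr-1 replicates 1, s2, s3 and s4 it stood at 62.4, 59.3, 90.0 and 119 CPM. The groups did not overlap for either contig, and the log2 fold change of SmedSXL_088974 was -3.56 (SE 0.422, edgeR adjusted p = 0.00106). Without control replicates s2 and s3 the log2 fold changes of SmedSXL_017621 and SmedSXL_088974 were -2.78 and -2.94.

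The 3 members with the most negative log2 fold change at 11 feedings were SmedSXL_003215 (569 bases), SmedSXL_017772 (672 bases) and SmedSXL_017509 (611 bases). SmedSXL_003215 stood at 105, 86.6, 285 and 631 CPM in control replicates 1, s1, s2 and s3 and at 9.66, 11.4, 16.8 and 15.4 CPM in nhr-1 replicates 1, s2, s3 and s4. Control replicates s2 and s3 were far above the other controls, whose values lay near the control mean of 102 ± 31.5 CPM (SD, n = 4) at 8 feedings. The log2 fold change came to -5.07 with an SE of 0.853 (edgeR adjusted p = 0.00447), and -2.85 without these replicates.

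SmedSXL_017772 had the same pattern, with 249, 236, 735 and 1034 CPM in control replicates 1, s1, s2 and s3 and 22.9, 26.1, 31.2 and 50.4 CPM in nhr-1 replicates 1, s2, s3 and s4. Its log2 fold change came to -4.78 with an SE of 0.757 (edgeR adjusted p = 0.00339), and -2.91 without control replicates s2 and s3. SmedSXL_017509 stood at 105, 84.9, 184 and 412 CPM in control replicates 1, s1, s2 and s3 and at 8.55, 14.5, 15.9 and 18.0 CPM in nhr-1 replicates 1, s2, s3 and s4. Its log2 fold change came to -4.43 with an SE of 0.722 (edgeR adjusted p = 0.00389), and -2.74 without them. For all 3 the nhr-1 libraries lay below every control, and control replicates s2 and s3 were the highest controls.

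The 3 members with the least negative log2 fold change were long, with 1793 bases for SmedSXL_010985, 2485 for SmedSXL_018220 and 1456 for SmedSXL_008992. SmedSXL_010985 stood at 247, 177, 45.9 and 80.5 CPM in control replicates 1, s1, s2 and s3 and at 51.3, 54.4, 63.9 and 80.3 CPM in nhr-1 replicates 1, s2, s3 and s4. Control replicate s2 lay below all nhr-1 libraries. The log2 fold change came to -1.40 with an SE of 0.367 (edgeR adjusted p = 0.0367), and -1.78 (edgeR adjusted p = 0.000719) without control replicates s2 and s3. With the replicate block, SmedSXL_010985 was not called (edgeR adjusted p = 0.164). In all, 9 of 18 alternatives ended its call, among them leaving out any single nhr-1 library or control replicate s1, with edgeR adjusted p from 0.0608 to 0.139.

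SmedSXL_018220 is the member that the test did not call. It stood at 421, 219, 69.5 and 92.3 CPM in control replicates 1, s1, s2 and s3 and at 70.8, 65.6, 96.9 and 118 CPM in nhr-1 replicates 1, s2, s3 and s4, and control replicates s2 and s3 lay among the nhr-1 libraries. The log2 fold change came to -1.42 with an SE of 0.417 (edgeR adjusted p = 0.0582), and -1.88 (edgeR adjusted p = 0.00230) without control replicates s2 and s3. SmedSXL_008992 stood at 128, 65.2, 17.5 and 25.9 CPM in control replicates 1, s1, s2 and s3 and at 20.1, 17.6, 28.0 and 27.8 CPM in nhr-1 replicates 1, s2, s3 and s4. Control replicate s2 lay just below all nhr-1 libraries and s3 among them. Its log2 fold change came to -1.56 with an SE of 0.434 (edgeR adjusted p = 0.0476), not called with the replicate block (edgeR adjusted p = 0.161), and -2.05 without control replicates s2 and s3 (edgeR adjusted p = 0.00110). Its call was lost in 8 of 18 alternatives, including those without any single nhr-1 library or control replicate s1, with edgeR adjusted p from 0.0653 to 0.156.

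**Figure D5:**
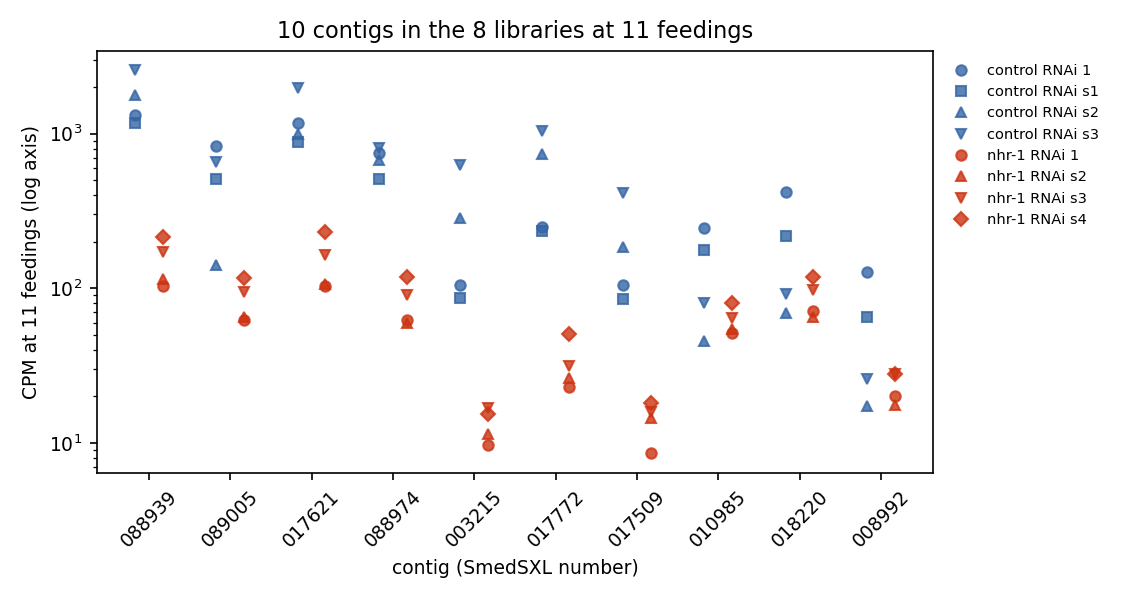
Level in CPM (y axis, log scale) of 10 members, given by their SmedSXL number (x axis), in the 8 libraries at 11 feedings. Blue symbols are control RNAi, red symbols nhr-1 RNAi, and the symbol shape gives the replicate name. For SmedSXL_003215 control replicates s2 and s3 stand at 285 and 631 CPM above the other controls, and for SmedSXL_018220 they stand at 69.5 and 92.3 CPM among the nhr-1 libraries.

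In the control library labelled 7 feedings, 40 of 99 members lay within the range of the 7 control libraries at 6 and 8 feedings, while 36 were below it and 23 above. Of the other abundant contigs 39.6% lay within that range, 30.5% below and 29.9% above. The median level relative to the mean of those controls was 1.26 for short and 0.655 for long members. This library was also low in long contigs outside the set, with a long-to-short ratio of 0.748 among the other abundant contigs. For 81 of the 99 members it lay above every nhr-1 library at 6 and 8 feedings, and for the rest it did not. That count was not made for the other abundant contigs. The control at 7 feedings is 1 library and allows no test.

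A neighbouring set, contigs that met the same rule except that the ratios at 6 and 8 feedings were both at most 0.125, held 18 members. Its median ratio was 0.497 at 4 feedings, 0.0635 at 6 and 0.0191 at 8, against 0.748, 0.195 and 0.168 for the 99 members. At 11 feedings, with control replicates s2 and s3 included, its median ratio was 0.00564, with a range from 0.00225 to 0.169. The ratios of both sets overlap at 11 feedings, where the 99 members began at 0.0485. Of the 18, 15 were under 1000 bases, compared with 34 of the 99. Both sets were defined by their ratios, so the distance between them at 6 and 8 feedings was fixed by the choice, and the difference at 11 feedings was not tested.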

How the data were processed

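The deposited table holds whole-number read counts per reference sequence, which were used as the authors deposited them. Bowtie2 is named, without a version, per the submitters' processing notes; how reads were counted, and whether by strand, is not given in the sources used here. Groups and replicate names come from the library titles, since 2 descriptions of controls at 11 feedings carry the name s3. The 1 row without a sequence name held 0 counts, 0 columns were left unused and 0 pairs of libraries were identical.

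The members and all lists were chosen with earlier results of these data known. Ratios at 4, 6 and 8 feedings chose the members and were not tested. Raw counts at 11 feedings were tested with edgeR 4.0.16 in R 4.3.3 (TMM, filterByExpr, quasi-likelihood F test, Benjamini-Hochberg over all tested sequences, call at an adjusted p under 0.05), on 8 libraries only, because the contigs had been chosen for separated groups at 6 and 8 feedings, which would lower their spread in a joint fit. Standard errors are the fold change over the square root of F. The script was tested on simulated data. Those data held no length pattern like that of control replicates s2 and s3, so the test lends the calls no support. DESeq2 1.42.0, other scalings, filters, fits and left-out libraries were tried as alternatives. At 11 feedings, deviations from the group means correlated at 0.468 for replicate 1, 0.317 for s2 and 0.204 for s3, all over the limit of 0.1. Same-named libraries were paired in the replicate block only, an alternative fit, and the main test was unpaired. Some differently named libraries correlated as strongly, nhr-1 s2 with control s3 at 0.341 and nhr-1 s3 with control s2 at 0.212, so the pairing is a weak one for s2 and s3. For nhr-1 replicate 1 the closest other control was s1 at 0.280, below the 0.468 with its own partner. No partner exists for nhr-1 replicate s4 and control replicate s1. Individual contigs were named by a rule: the 4 highest control levels per length, the 3 most and 3 least negative fold changes at 11 feedings, and the contigs nearest to each limit. The pair that may share reads was named after its values were seen.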

Additional observations from a re-analysis of the deposited data

Results flagged for a closer look

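Within groups of 4 libraries, 91 sets of values (10 named contigs and 3 sums over members, in 7 groups) were searched for a library whose gap to the nearest other exceeded Dixon's 95% critical share of the group's range, which chance gives in about 1 in 20 groups, and 4 were found. The summed level of the members under 1000 bases was 6348 CPM in control replicate s1 at 4 feedings, against 13911 to 14312 CPM in the other 3 controls, and that library was the lowest control at 4 feedings for all 99 members. In control replicate 1 at 8 feedings SmedSXL_088939 reached 1664 CPM, where the other controls had 1005.3 to 1078 CPM. In the same library SmedSXL_088974 stood at 1060.1 CPM, against 532 to 599 CPM. SmedSXL_017509 stood there at 149.98 CPM, against 88.3 to 98.7 CPM. Both libraries belong to groups that chose the members.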

How the results depend on the processing

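With total counts alone, 27 members were called lower at 11 feedings in place of 98; the median over all sequences moved from 0.06 to 0.56 and that of the members from -2.44 to -2.08, with all 99 negative. The cause was not tested. With 1 library removed in turn, the calls numbered 66 to 99, with the fewest without nhr-1 replicate 1 (7.11% of all sequences called lower) and 99 without control replicate 1, where 25.5% were, median log2 fold changes from -2.67 to -2.24 and 0 members higher throughout. The replicate block, which pairs same-named libraries, called 82 members with a median of -2.55. Of the 10 members named for their level or fold change, it ended the calls of SmedSXL_010985 and SmedSXL_008992 only. Among members named for a limit or for shared reads, it ended those of SmedSXL_012812, SmedSXL_019727, SmedSXL_018218 and SmedSXL_011516 (edgeR adjusted p from 0.0653 to 0.0962). Libraries named with s alone called 82. The fits over 31 libraries called 99, but share values with the choice of members. In CPM, 55 members had no overlap at 11 feedings (9.79% of abundant contigs), and 96 in CPM scaled by TMM (14.0%). Scaling within length classes gave 85 (14.9%), and leaving out control replicates s2 and s3 gave 99 (17.9%). Without 1 library the number was 55 to 86, against 9.79% to 17.2% of abundant contigs. The 17.2% came without control replicate 1, where 55 members had no overlap. The rule gave 106 members with a pseudocount of 1 CPM (99 shared), 87 with SmedSXL_088910 in the denominator (83 shared) and 84 with the 7-feedings control counted at 6 (80 shared). For the 10 members named for their level or fold change, 154 of 180 alternative fits kept direction and side of the threshold. In 18 the call was lost, in 8 it was gained and none reversed.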
